A study of Mus musculus with 8 samples.

Results

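State 34 is 1 of 42 cell states into which single cells of mouse embryos were grouped between implantation and early organ formation. It comes with the label pharyngeal arch mesoderm and the given marker genes Ebf1, Fst, Lum, Col3a1 and Ptn, and the label was not tested. It was chosen by its number in the deposited table, which lists 712 genes and gives 1 value per gene and state, the centre of that state's cells. State 34 was described across all 712 genes, first against states 20, 33, 18 and 41 and then against all 41 other states. The values are called levels here. They are scores of at least 0, running to 1.79 in the table and to 1.36 in state 34, and their scale is not given in the sources used here, so states are compared by the difference in level, never by a ratio.

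The cells came from 8 droplet libraries of 3′ transcript ends at 5 stages: 1 library at E6.5 (10 pooled embryos), 1 at E7.0 (9 embryos), 2 at E7.5 (7 and 4 embryos), 2 at E8.0 and 2 at E8.5. The paired E8.0 libraries, and likewise the E8.5 ones, are labelled a and b of the same replicate, with 10 embryos given for each, and may share a pool. E stands for days of embryonic development. All embryos were wild type. They were made by injecting sperm of B6/CAST F1 males into B6D2F1 oocytes and were carried by CD-1 surrogate females, and the outer extraembryonic tissue was kept where this could be done. Each column of the table pools cells of all stages and libraries, so no level has a replicate error, no difference was tested, and the stages at which state 34 occurs and its number of cells are not given. A level is an average over cells, in which a smaller share of cells with the RNA and less RNA per cell cannot be told apart.

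Pharyngeal arches are the paired bulges on the sides of the embryonic head and neck. Each holds a core of mesoderm, which gives rise to muscles of the jaw, face and throat and adjoins the progenitors of the outflow tract of the heart, and the core is surrounded by neural crest cells that form most of the facial skeleton. Tbx1, a T-box transcription factor that the arches and the outflow tract need, and homeobox and forkhead factors are known regulators of this mesoderm.

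Promoter sequences are shown for Prrx2, the gene with the largest difference from the mean of the other 41 states, and Col3a1, the gene with the largest difference above state 20, because the regulators highest in state 34 include members of the EBF family (Ebf1, Ebf2) and the E-box binding factor Twist1. The sequences are RefSeq windows of 300 bases around the annotated start, on GRCm38.p6, and both genes lie on the plus strand. Capitals mark an EBF core (letters CCCNNGGG) in the Prrx2 window at chr2:30845117-30845416 and 4 E-boxes (letters CANNTG) in the Col3a1 window at chr1:45311288-45311587, with no overlapping matches.
Prrx2: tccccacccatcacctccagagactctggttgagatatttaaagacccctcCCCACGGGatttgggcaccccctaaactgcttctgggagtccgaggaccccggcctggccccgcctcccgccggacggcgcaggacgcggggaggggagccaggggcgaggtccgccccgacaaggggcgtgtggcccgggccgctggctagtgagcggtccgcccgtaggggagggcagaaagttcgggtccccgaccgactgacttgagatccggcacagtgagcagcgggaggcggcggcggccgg
Col3a1: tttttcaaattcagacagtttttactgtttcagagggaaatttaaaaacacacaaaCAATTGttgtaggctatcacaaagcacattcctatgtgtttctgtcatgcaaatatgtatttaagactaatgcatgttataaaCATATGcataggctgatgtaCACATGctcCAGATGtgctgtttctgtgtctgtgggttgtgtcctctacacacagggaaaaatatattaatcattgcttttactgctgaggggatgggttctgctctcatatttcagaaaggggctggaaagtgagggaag
Both windows were chosen after their matches were seen. The EBF core, the E-box and a T-box site (letters TCACACC) were searched on both strands. Of the 22 genes highest in state 34, 14 had a window that could be searched, and 3 of those (21.4%) held the EBF core, as did 21.1% of 493 genes of the table and 13.45% of 27025 mouse genes. The E-box was in 6 of the 14 windows (42.9%), against 68.6% of those 493 genes and 72.2% of those 27025. The T-box site was in 0 of the 14, against 4.26% and 3.96%. The first listed windows of Ebf1 and Tbx1 held none of these letters. A match describes the letters and is not a binding site.

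Together the 5 given markers were highest in state 34, though only Ebf1 was so alone. Their summed level was 3.67 in state 34, the highest of 42 states, against 2.20 in state 20, 1.31 in state 33, 2.43 in state 18 and 2.53 in state 41. Ebf1, a helix-loop-helix factor known from B cells that is also active in embryonic mesenchyme, was at 0.665 in state 34, against 0.409 in state 20, 0.314 in state 18 and between 0 and 0.268 in the remaining states. Col3a1, a chain of type III collagen, was at 0.669 in state 34, below 0.895 in state 41 and above 0.643 in state 15. Lum, which encodes the collagen-binding proteoglycan lumican, was at 0.601 in state 34, below 1.18 in state 41 and 0.903 in state 15. Most states were far below state 34 for these 3 genes, for which the median of the other 41 states was 0.0385 for Ebf1, 0.0078 for Col3a1 and 0.0091 for Lum.
The 2 other markers were widely shared. Fst, which encodes follistatin, a secreted binder of activins, was at 0.822 in state 34, the sixth highest level, with 1.45 in state 14, 0.876 in state 18 and 0.844 in state 20. Ptn, the heparin-binding growth factor pleiotrophin, was at 0.913 in state 34, the eighth highest level, and reached 1.17 in state 24.

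**Figure D1:**
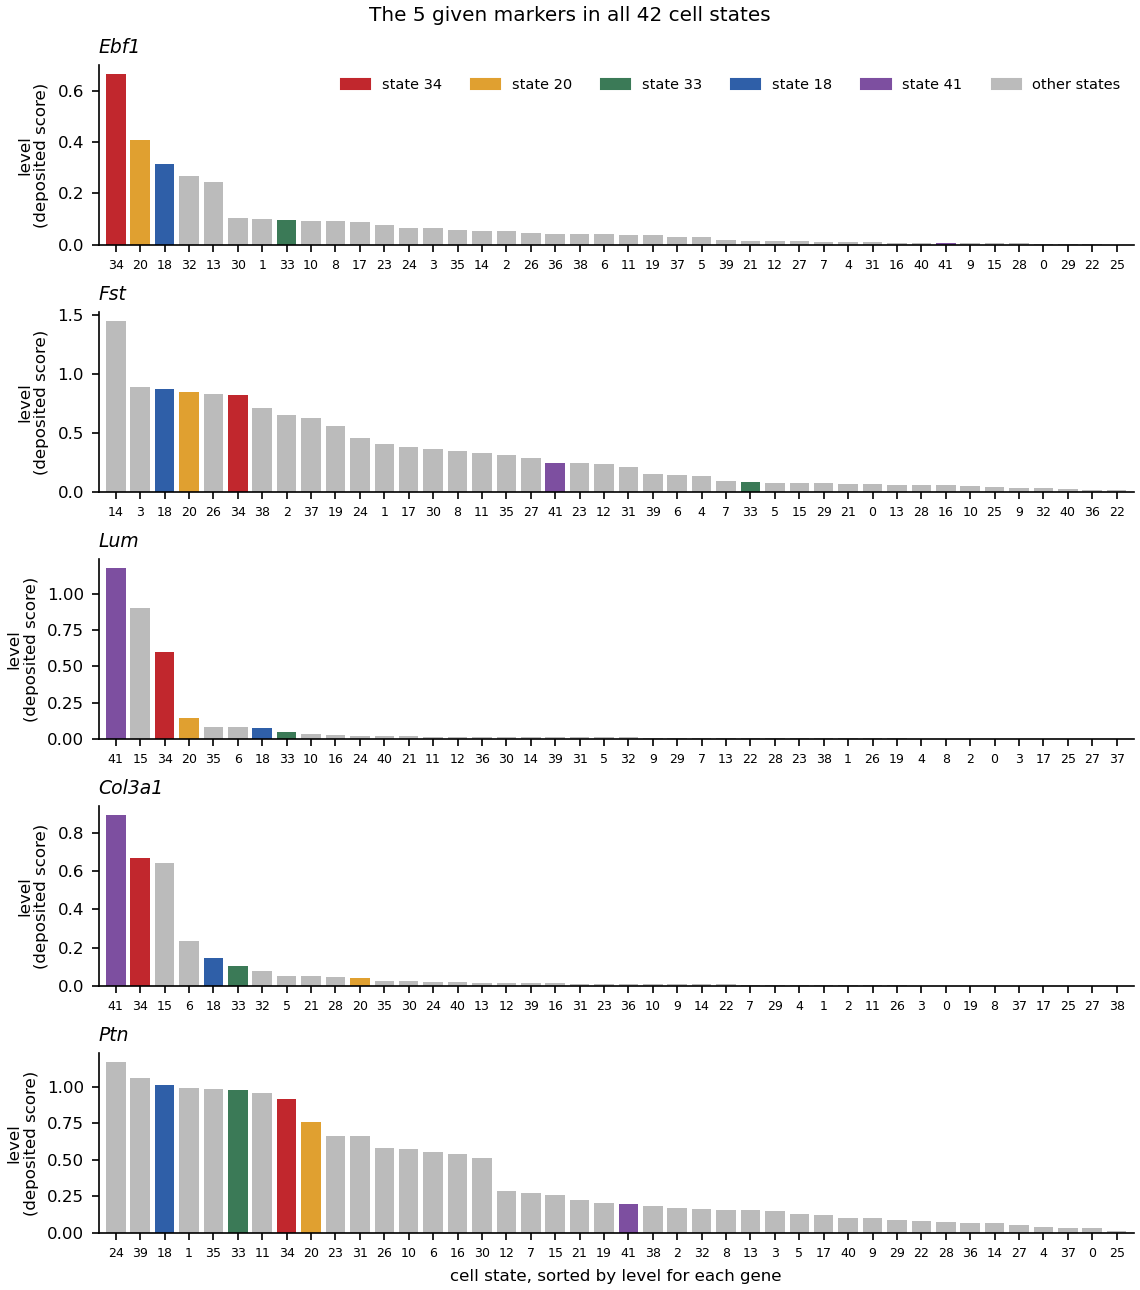
Level (deposited score) of Ebf1, Fst, Lum, Col3a1 and Ptn in all 42 cell states, 1 bar per state, sorted from high to low for each gene; state 34 is red and states 20, 33, 18 and 41 have their own colours. State 34 is first for Ebf1 (0.665), second for Col3a1 (0.669) and the third for Lum (0.601), but sixth for Fst and eighth for Ptn.

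A wider list of pharyngeal and cranial mesoderm regulators was also described. Of its 20 genes 9 were in the table, all 9 were above the mean over the other 41 states, 7 by 0.3 or more, and 0 were below it. By 0.5 or more it was 1, Ebf1, which is also a given marker. Over all 712 genes, 41 (5.76%) exceeded that mean by 0.3 or more and 12 (1.69%) lay as far below it. The same shares of all genes apply to each later list count at 0.3. The list's median difference was 0.39 and that of all genes -0.03, and its summed level was 4.35 in state 34, the highest of 42, against 3.40 in state 20, 0.620 in state 33, 2.86 in state 18 and 1.08 in state 41. These genes are of the same table as the states' centres, so the count describes state 34 and is no separate evidence for its name. The given label is kept as a name only. State 20 was close to state 34 for several of these genes, among them Tbx1, Foxc1 and Foxc2.

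Within this list 6 genes had their highest level of all 42 states in state 34. Tbx1 stood at 0.536 in state 34, with 0.510 in state 20 and no more than 0.178 in any other state. State 34 and state 20 were therefore the only states with a sizeable Tbx1 level, and they lay 0.03 apart. Ebf2, a relative of Ebf1, was at 0.413 in state 34, 0.283 in state 20 and at most 0.106 elsewhere. Foxd1, a forkhead factor of mesenchyme, was at 0.437 in state 34, 0.331 in state 18, 0.147 in state 20 and 0 in state 41. Foxp1, a forkhead repressor, was at 0.657 in state 34 with 0.616 in state 23 close to it. These named genes differ in their next state, which was 20 for Tbx1, Ebf1 and Ebf2, 18 for Foxd1, and 23 for Foxp1.
The remaining 3 members were higher elsewhere. Among them Foxc2 and Foxc1, forkhead factors of paraxial and head mesoderm, were at 0.486 and 0.340 in state 34, the second highest levels, below 0.653 and 0.444 in state 18.

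State 34 had the highest level of all 42 states for 22 genes (3.09% of 712), the second highest for 18 and the lowest for 14. State 20 was the next state for 7 of the 22 and state 18 for 5. The leads were small for many of them. Ebf1 led by 0.26, Col26a1, a collagen of the extracellular matrix, by 0.21, Pdgfrb, the beta receptor for platelet-derived growth factor, by 0.18, and Ddr2, a receptor tyrosine kinase that binds collagen, by 0.16. At the other end Twist1 led by 0.01, Cdh11 by 0.02, and Tbx1 and Prrx2 by 0.03 each. No lead reached 0.5.

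Relative to the mean of the other 41 states, 11 genes (1.54%) were at least 0.5 higher in state 34 and 1 (0.14%) was at least 0.5 lower. The 11 were the 5 given markers together with Prrx2, Nnat, Vcan, Mfap2, Col26a1 and Cdh11. Prrx2, a paired-type homeobox factor of mesenchyme, was at 0.833 in state 34 against a mean of 0.180 in the others, where it ran between 0.0033 and 0.807 in state 20. Cdh11, a cadherin of mesenchymal cells, was at 0.614 in state 34 against a mean of 0.098, with 0.599 in state 41. Vcan, the chondroitin sulfate proteoglycan versican, was at 0.745 in state 34 against 0.205, and Mfap2, a protein of elastic microfibrils, at 0.778 against 0.251. Nnat, the imprinted gene neuronatin, was at 1.10 in state 34 against a mean of 0.476, with 1.12 in state 41. Of these 6 genes Prrx2, Mfap2, Col26a1 and Cdh11 had their highest level of all states in state 34.

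**Figure D2:**
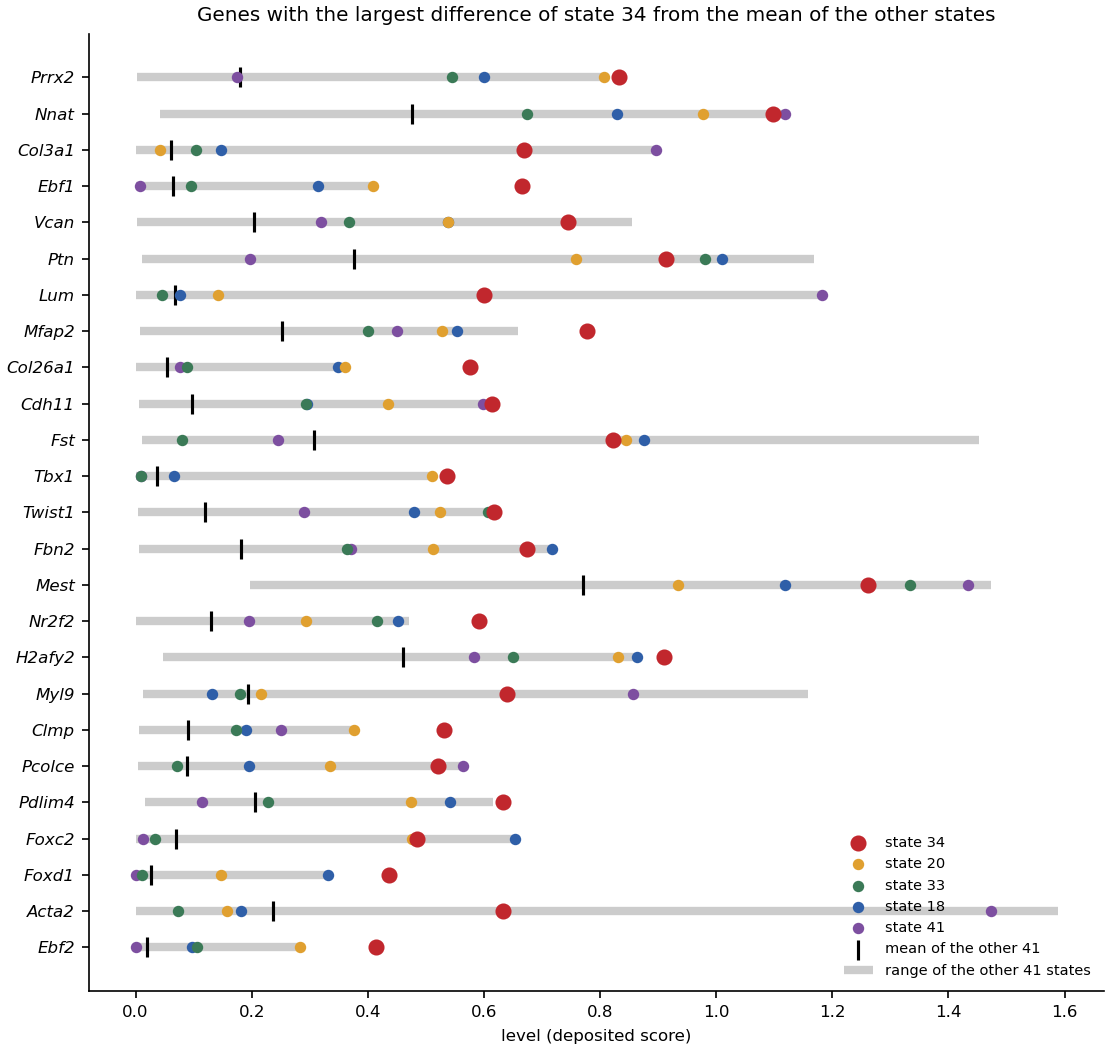
Level (deposited score) of the 25 genes with the largest difference of state 34 from the mean of the other 41 states; red points are state 34, coloured points states 20, 33, 18 and 41, black ticks the mean and grey bars the range of the other 41 states. State 34 lies beyond the grey bar for 13 of the 25 genes, by the widest margin for Ebf1 (0.26).

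Of these 25 genes 13 were highest in state 34. State 20 was within 0.1 of state 34 for 6 of the 25 and 587 of all 712 genes, state 33 for 3 and 551, state 18 for 5 and 560, and state 41 for 3 and 437. State 34 was at least 0.3 above state 20 for 5 of the 25 and 9 of all 712 genes, above state 33 for 19 and 36, above state 18 for 10 and 18, and above state 41 for 16 and 41. The 25 were chosen for high levels in state 34, so nothing is read from these shares. The 5 above state 20 were Col3a1, Lum, Mest, Myl9 and Acta2, and the regulators Nr2f2 and Foxd1 came next, 0.298 and 0.290 above it.

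Of all 712 genes 5.76% were 0.3 or more above the mean of the others and 1.69% as far below. Among 13 measured regulators of head and arch mesenchyme 3 exceeded the mean of the others by 0.3 or more in state 34 and 0 lay as far below it. These were Prrx2, Twist1 and Nr2f2, and state 34 was the highest of 42 states for each. Twist1, a helix-loop-helix factor of mesenchyme and neural crest, was at 0.617 in state 34, 0.607 in state 33 and 0.525 in state 20. Nr2f2, an orphan nuclear receptor, was at 0.592 in state 34, 0.470 in state 6, 0.452 in state 18 and 0.293 in state 20. The other members ranged widely. Meis2, a homeobox cofactor, was at 0.566 in state 34, rank 12 of 42, and Snai1, a repressor of epithelial genes, at 0.472, rank 5. Hand2, a factor of heart and ventral arch mesenchyme, was at 0.014 in state 34 and 0.455 in state 41. Alx1, a homeobox factor of head mesenchyme, was at 0.131 in state 34, 0.436 in state 20 and 0.294 in state 33. The list's summed level was 4.49 in state 34, the third of 42, below 5.39 in state 6.

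Fibrillar collagens and their partners followed 1 order of states. Of 8 measured genes 4 were at least 0.3 above the mean of the others in state 34 (Col3a1, Lum, Pcolce and Col2a1) and 0 below. Of all 712 genes 5.76% were as far above it and 1.69% as far below. In 7 of the 8 state 34 lay above states 20, 33 and 18 and below state 41, an order that 100 of all 712 genes had. Pcolce, an enhancer of procollagen processing, was at 0.521 in state 34, 0.336 in state 20, 0.071 in state 33, 0.195 in state 18 and 0.564 in state 41. Col1a2, a chain of type I collagen, was at 0.389 in state 34, 0.104 in state 20, 0.303 in state 33, 0.271 in state 18 and 1.02 in state 41. Its partner Col1a1 was far lower in state 34 than in state 41, at 0.143 and 1.12. Col2a1, the type II collagen chain of cartilage, was the exception, at 0.446 in state 34, between 0.191 and 0.212 in states 20, 33 and 18, and 0.047 in state 41. The summed level of the 8 genes was 3.27 in state 34, 1.19 in state 20, 1.00 in state 33, 1.18 in state 18 and 6.21 in state 41.

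Of 4 measured cartilage genes 3 were 0.3 or more above the others' mean (Col2a1, Col9a1 and Sox9), against 5.76% of all 712 genes. The other, Hapln1, which links hyaluronan and proteoglycans, was at 0.344 in state 34, 0.415 in state 20 and 0.530 in state 41. Col9a1, a collagen of cartilage fibrils, was at 0.419 in state 34, 0.070 in state 20, 0.166 in state 33, 0.140 in state 18 and 0.274 in state 41. Sox9, a factor of cartilage and neural crest, was at 0.475 in state 34, 0.256 in state 20, 0.590 in state 33, 0.214 in state 18 and 0.032 in state 41. Col2a1 and Col9a1 were therefore higher in state 34 than in each of these 4 states, and among them Sox9 was higher only in state 33. State 23, however, was above state 34 for Col2a1 (0.597), Col9a1 (0.507) and Sox9 (0.829). Col2a1 also reached 0.735 in state 21, and Sox9 0.762 in state 38. The summed level of the 4 cartilage genes was 2.06 in state 23, the highest, and 1.68 in state 34, the second.
Of 8 other matrix glycoproteins 4 were at least 0.3 above the mean (Vcan, Mfap2, Fbn2 and Mfap4), against 5.76% of all 712 genes. All 8 were above the mean, from which the median difference over all genes was -0.03. Fbn2, a fibrillin of microfibrils, was at 0.675 in state 34, 0.512 in state 20, 0.365 in state 33, 0.718 in state 18 and 0.371 in state 41. Mfap4, a microfibril-associated protein, was at 0.462 in state 34, 0.381 in state 20, 0.049 in state 33, 0.226 in state 18 and 0.171 in state 41. Postn, the matrix protein periostin, was at 0.057 in state 34 and 1.14 in state 41. Of 4 basement membrane genes 0 reached a difference of 0.3 in either direction.

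**Figure D3:**
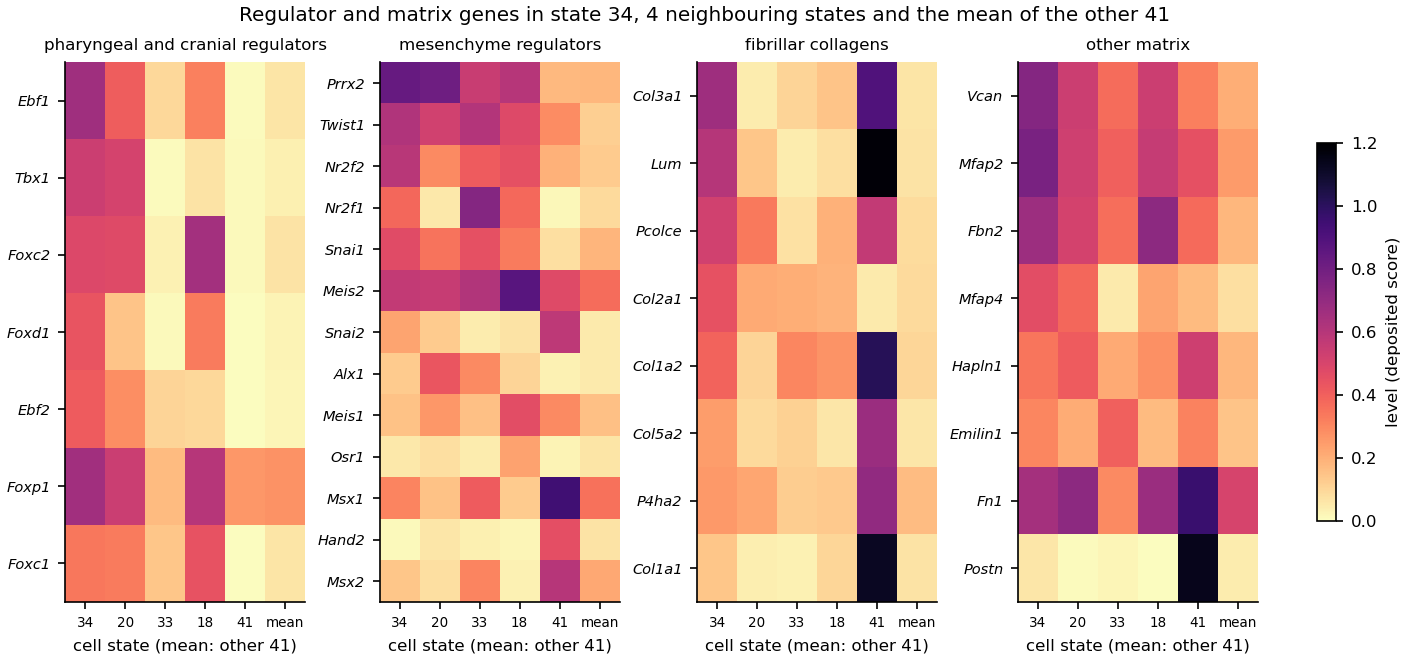
Heat maps of the level (deposited score, colour) of the reported regulators and matrix genes of 4 lists, with columns for states 34, 20, 33, 18 and 41 and for the mean of the other 41 states, genes ordered by the difference of state 34 from that mean. Tbx1 is dark in states 34 and 20 only among the 5 states (0.536 and 0.510), while Col3a1 and Lum are dark in states 34 and 41 (0.669 and 0.895 for Col3a1).

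The signalling lists held few measured genes each. Of all 712 genes 5.76% were at least 0.3 above the mean of the others and 1.69% as far below. Among 6 growth factor receptors Pdgfrb alone was at least 0.3 above the mean, at 0.420 in state 34, 0.235 in state 20, 0.130 in state 33, 0.236 in state 18 and 0.196 in state 41. Among 5 antagonists of Bmp and activin 2 were, namely Fst and Fstl1, a secreted follistatin-like protein at 0.751 in state 34, 0.712 in state 18 and 0.602 in state 20. Among 6 heparin-binding and growth factor ligands only Ptn was. The 4 hedgehog target genes included Foxd1 as the only one past 0.3, with Ptch1, the hedgehog receptor, at 0.472 in state 34, 0.407 in state 20 and 0.496 in state 18.
No gene reached 0.3 in either direction among 5 ligands of the Tgfb and Bmp families, 6 Wnt ligands, 7 Wnt modulators, 4 Fgf ligands, 6 Notch pathway genes or 7 retinoic acid genes. Lists this short can hold no such gene at the share of all genes, so nothing is read from their absence. All 6 Notch genes were under 0.05 in state 34, as were 343 of all 712 genes (48.2%). All 6 were below the mean of the others, from which the median difference over all genes was -0.03. Fgf8, a growth factor of arch epithelia and cardiac progenitors, was at 0.077 in state 34 and 0.360 in state 20, the largest gap between these states among the Fgf genes.

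The listed Hox genes all lay below the mean of the other states in state 34. The 9 trunk genes of groups 5 to 9 had a summed level of 0.136 in state 34, 0.093 in state 20, 0.445 in state 33, 0.550 in state 18 and 1.68 in state 41. The 7 measured Hox genes of groups 1 to 4 summed to 0.343 in state 34, 0.523 in state 20, 0.823 in state 33, 2.08 in state 18 and 1.30 in state 41. Hoxb2 was the highest of them in state 34, at 0.118. Cdx2, a homeobox factor of the posterior embryo and of trophoblast, was at 0.019 in state 34, the lowest level of all 42 states. Both Hox sums of state 34 were nearer to those of state 20 than to those of state 18.

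Genes of epithelial and pluripotent cells were among those lowest against the other states. Phlda2, an imprinted gene that restrains placental growth, was the only gene at least 0.5 below the mean of the others, at 0.140 in state 34 against a mean of 0.788, and state 34 was the lowest of 42. Krt8 and Krt18, keratins of simple epithelia, were at 0.220 and 0.280 in state 34 against means of 0.662 and 0.692. Epcam, an epithelial adhesion molecule, was at 0.032 against 0.428, and Pou5f1, a pluripotency factor, at 0.0055 against 0.412. Of 14 epithelial genes 5 were at least 0.3 below the mean and 0 as far above. Of 10 measured mesenchymal genes 4 were at least 0.3 above and all 10 were above the mean. Over all 712 genes 1.69% were as far below and 5.76% as far above, with a median difference of -0.03. Mt1 and Mt2, metallothioneins that bind metal ions, were at 0.155 and 0.084 in state 34 against means of 0.538 and 0.483.

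State 20 was the state most like state 34. It had no fixed marker list of its own highest in it, so it stays unnamed, and it shared Tbx1, Prrx2 and Foxc2 with state 34 to within 0.03. At least 0.5 higher in state 34 than in state 20 was 1 gene (0.14%) and at least 0.5 lower were 3 (0.421%). Col3a1 was the 1 higher gene, at 0.669 in state 34 and 0.043 in state 20. Below that threshold the next were Acta2, a smooth muscle actin, at 0.633 in state 34 and 0.157 in state 20, Lum at 0.601 and 0.143, and Myl9, a myosin light chain of smooth muscle, at 0.640 and 0.216. Then came Xist, Col9a1, Nr2f1, Mest, and Tagln, an actin-binding protein of smooth muscle at 0.560 in state 34 and 0.245 in state 20.
The 3 lower genes were Ifitm1, an interferon-induced membrane protein, at 0.404 in state 34 and 1.08 in state 20, Phlda2 at 0.140 and 0.771, and Ppp1r1a, an inhibitor of protein phosphatase, at 0.282 and 0.802. Tcf15, a helix-loop-helix factor of paraxial mesoderm, was at 0.333 in state 34 and 0.748 in state 20. Myl7, an atrial myosin light chain, was at 0.152 and 0.562, and Cyp26a1, which degrades retinoic acid, at 0.168 and 0.545. Slc2a1, a glucose transporter, was at 0.521 in state 34 and 0.869 in state 20. The last 4 of these genes lay less than 0.5 apart in level between the 2 states.

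Against state 33, neural crest-like by its markers, 6 genes (0.843%) were at least 0.5 higher in state 34 and 4 (0.562%) at least 0.5 lower. Fst showed the largest difference, at 0.822 in state 34 and 0.081 in state 33, followed by Ebf1 (0.665 and 0.095), Col3a1, Acta2, Lum and Tbx1 (0.536 and 0.0088). The 4 lower genes included Crabp1, a binding protein of retinoic acid, at 0.679 in state 34 and 1.31 in state 33, Tfap2b, a neural crest factor, at 0.0074 and 0.622, and Crabp2 at 0.442 and 0.946. Sox10, a defining crest factor, was at 0.0059 in state 34 and 0.495 in state 33.
The neural crest list summed to 1.92 in state 34, the sixth highest, and 5.97 in state 33. Of its 11 measured members 6 were under 0.05 in state 34, among them Sox10, Tfap2a, Tfap2b and Dlx2, as were 48.2% of all 712 genes. State 34 was among the top 5 states for 3 members, Sox9, Nr2f1 and Ets1, the last at 0.243. Sox9 was the only member at least 0.3 above the mean of the others. Crabp1 and Nr2f1, an orphan nuclear receptor, at 0.679 and 0.381, made up much of the rest.

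Against state 18, somite-like by its markers, 3 genes (0.421%) were at least 0.5 higher in state 34 and 5 (0.702%) at least 0.5 lower. The higher genes were Lum (0.601 in state 34 and 0.077 in state 18), Col3a1 (0.669 and 0.147) and Myl9 (0.640 and 0.131), with Tbx1 next at 0.536 and 0.066. The lower genes were Aldh1a2, which makes retinoic acid, at 0.178 in state 34 and 1.04 in state 18, Tcf15 at 0.333 and 1.11, Meox1, a homeobox factor of somites, at 0.347 and 1.05, Ifitm1 at 0.404 and 1.10, and Arg1, an arginase, at 0.560 and 1.06. The somite list summed to 2.27 in state 34, the fourth highest, 2.83 in state 20 and 6.00 in state 18. Of its 8 measured members 2 were 0.3 or more above the others' mean in state 34 (Foxc2 and Arg1) and 0 as far below, and state 34 was among the top 5 states for 5. Pax3 and Mesp2, factors of somites, were at 0.027 and 0.0024.

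State 41, extraembryonic mesoderm-like by its markers, differed most of the 4. At least 0.5 higher in state 34 were 8 genes (1.12%) and at least 0.5 lower were 57 (8.01%). The higher genes were Ptn (0.913 in state 34 and 0.197 in state 41), Prrx2 (0.833 and 0.175), Ebf1 (0.665 and 0.0074), Phlda1, Fst, Tbx1, Pdlim4 and Arg1. Among the 57 the largest differences were those of Pmp22, a membrane protein, at 0.131 in state 34 and 1.34 in state 41, Krt8 at 0.220 and 1.43, and Hand1, a factor of extraembryonic and heart mesoderm, at 0.029 and 1.15. Bmp4, a growth factor, was at 0.084 in state 34 and 0.971 in state 41. The extraembryonic mesoderm list summed to 2.69 in state 34, rank 24 of 42, and 13.6 in state 41. Of its 15 measured genes 0 were 0.3 or more above the others' mean in state 34 and 2 as far below it (Krt8 and Krt18).

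**Figure D4:**
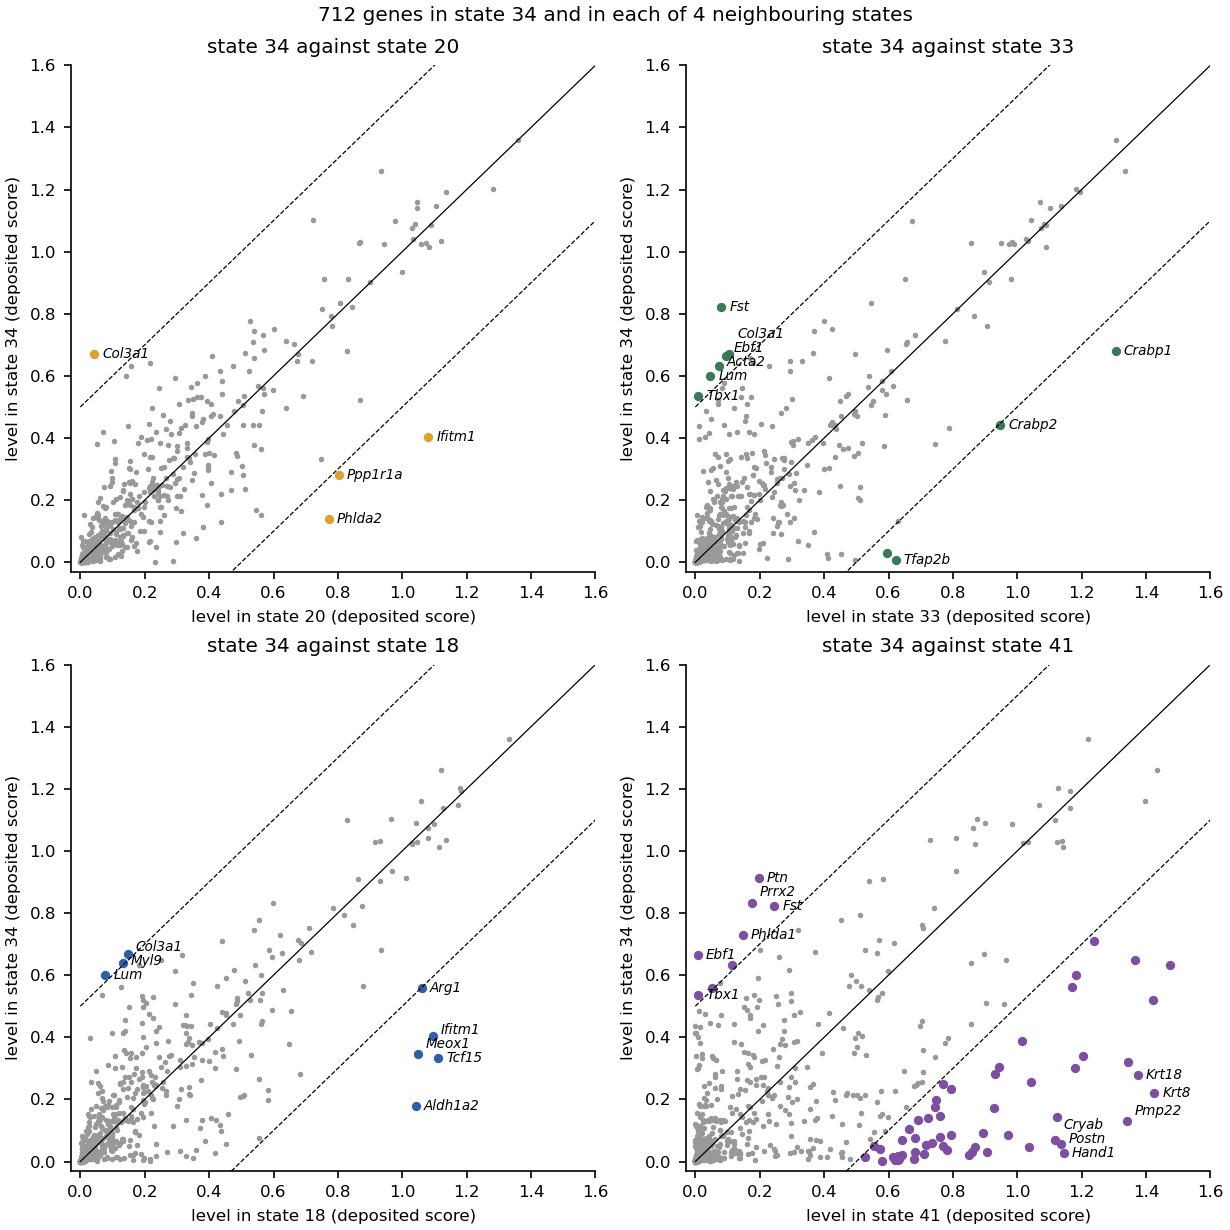
Level (deposited score) of 712 genes in state 34 (vertical axis) against states 20, 33, 18 and 41 (horizontal axis, 1 panel each), each point 1 gene; the solid line marks equal levels, dashed lines a difference of 0.5, and coloured points the genes at or past it, of which up to 6 per side are named. Few genes lie outside the dashed lines for states 20, 33 and 18, and 57 lie below them for state 41.

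Taking the 4 states as a group, 104 of 712 genes were higher in state 34 than in each of them and 77 were lower than in each. An equal split of the highest or the lowest level among state 34 and these 4 states would give more genes in both cases. By at least 0.1 the counts were 17 and 0, and by at least 0.2 there were 7 higher genes: Gng11, Ebf1, Col2a1, Mfap2, Col26a1, Flrt2 and Vcan. Gng11, a G protein gamma subunit, was at 0.498 in state 34 and at most 0.224 in the 4 states. Flrt2, a transmembrane adhesion protein, was at 0.402 in state 34 and at most 0.194 in the 4, with 0.334 in state 14. Outside the 4, other states were higher for 3 of the 7 genes: Gng11 reached 0.970 in state 32, and Col2a1 and Vcan reached 0.735 and 0.855 in state 21.

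Across the 712 genes, each centred on its mean over the states, the Pearson correlation with state 34 was 0.753 for state 20, 0.657 for state 18, 0.572 for state 33 and 0.248 for state 41. The order began with states 20, 18, 33, 35 (0.502) and 6 (0.432), and the lowest was -0.430 for state 25. These are descriptions over genes that share the same cells and are not independent.

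**Figure D5:**
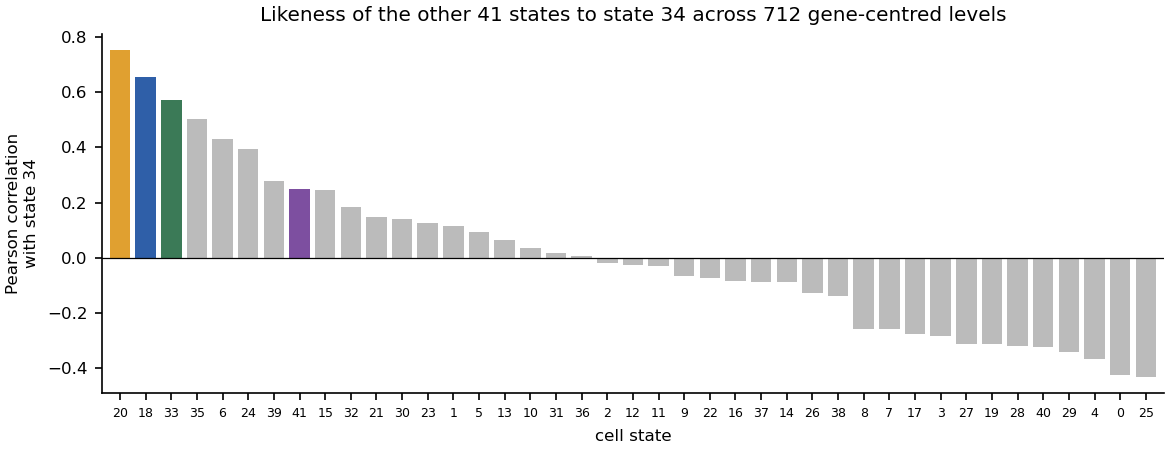
Pearson correlation (vertical axis) of state 34 with each of the 41 other cell states (horizontal axis, sorted), over 712 genes centred on their mean across states; states 20, 33, 18 and 41 are coloured. State 20 is first at 0.753 and state 41 is at 0.248.

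The genes whose pattern over the 42 states was most like that of Ebf1 were Col26a1 (Pearson correlation 0.868), Ebf2 (0.860), Foxd1 (0.811), Foxc2 (0.806) and Tbx1 (0.806). In the genome Ebf1 lies at chr11:44617317-45008091, Tbx1 at chr16:18580979-18590671, Prrx2 at chr2:30834972-30881251 and Col26a1 at chr5:136741759-136883209 (GRCm38, whole genes).

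Marker lists of other cell types summed to far less in state 34 than in the state highest for each. Against the median sum of the other 41 states they went both ways. The cardiac muscle sum was above that median (2.08 against 0.83), as were those of second heart field, endothelium, blood, visceral endoderm and neural ectoderm. The presomitic, lateral plate, surface ectoderm, gut, node and pluripotency sums were below it. The second heart field list of 12 measured genes summed to 1.06 in state 34, rank 19, and 5.73 in state 21, and Tbx1 made up 0.536 of it while Hand2, Gata4 and Hand1 were under 0.05 and Nkx2-5 was at 0.072. The cardiac muscle list summed to 2.08 in state 34, the sixth highest, against 17.6 in state 21. Its 2 genes at least 0.3 above the others' mean were Acta2 and Tagln. Both are smooth muscle genes and, at 0.633 and 0.560, made up much of that sum. Of the 13 measured members 4 were above the others' mean in state 34. State 34 was above state 20 for 9 of the 13 measured cardiac genes, above state 33 for 12 and above state 18 for 11. These counts take no account of the size of a difference. In state 34, 5 of the 13 were under 0.05, among them Myh7 at 0.025, against 0.0065 in state 20. The median difference over all genes was -0.0005 from state 20, 0.0018 from state 33 and 0.0015 from state 18. Actc1, the cardiac actin, was at 0.292 in state 34, rank 6 of 42, and Myh6, a cardiac myosin, was at 0.014, also rank 6.
Endothelial genes summed to 0.914 in state 34, rank 16, and 9.35 in state 32, with Etv2, an early endothelial and blood factor, at 0.302 and Cdh5 and Pecam1, junction proteins of vessels, under 0.05. Blood genes summed to 0.986 in state 34, rank 8, and 7.67 in state 22. Hba-a1, a globin that shares reads with its near-identical copy Hba-a2 and is therefore uncertain, was at 0.599 in state 34, while Gata1 and Klf1, factors of red cells, were under 0.05. Visceral endoderm genes summed to 1.31, rank 11, and 15.4 in state 40. For the presomitic (10 measured), lateral plate (10), neural ectoderm (6), surface ectoderm (11), gut (13), node (9) and pluripotency (11) lists, 0 genes were 0.3 or more above the others' mean, and 4 surface ectoderm, 2 gut, 1 node and 2 pluripotency genes lay as far below it. These counts rest on 5 genes, some of them in several lists (Krt8, Krt18, Cldn6, Epcam and Pou5f1). Whether RNA of such cells had a part in the levels of state 34 was not tested.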

How the data were processed

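The series deposited 1 table with 712 genes and 42 cell states. Its values are scores: per the file headers each column is the centre of a cluster of cells of all libraries, and how the authors normalised, scaled, chose genes, treated doublets and clustered is not given in the sources used here. Per the submitters' processing notes the reads were handled with Cell Ranger on mm10. The stage of 1 E8.5 library is given as E8.0 in its description, and no column separates it. Depth, cells and free RNA could not be looked at, so the precision is unknown. Levels were subtracted with pandas 2.3.3 and numpy 2.4.6 (Python 3.11.15), and the counting was tested on simulated data. Thresholds were 0.5 for genes and 0.3 for lists. The named genes were the given markers, the 25 highest and 10 lowest differences from the other states, up to 10 per direction against each of 4 states, and listed genes. State 34, the 43 gene lists and the thresholds were chosen with earlier results of these data known. Positions are from GENCODE and windows from RefSeq (GRCm38.p6); 493 genes had a searched window. Some genes counted in the lists are not reported here by name.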

Additional observations from a re-analysis of the deposited data

How the results depend on the processing

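Subtracting each state's median level moved no count of genes by more than 1.5 times: it gave 1 higher and 3 lower against state 20, 6 and 5 against state 33, 3 and 5 against state 18, 8 and 57 against state 41, and 11 and 1 against all others. The median of the other states in place of their mean gave 16 and 1. A threshold of 0.75 left 0 higher and 0 lower genes against states 20 and 33 and against all other states, 0 higher and 2 lower against state 18, and 0 higher and 21 lower against state 41. Against the next state, in place of the mean of the others, 0 genes were higher and 0 lower by 0.5. Without centring the genes, the correlations were 0.913 with state 20, 0.846 with state 33, 0.871 with state 18 and 0.591 with state 41. Spearman correlations were 0.808 with state 20, 0.714 with state 18, 0.677 with state 33 and 0.362 with state 41, which places state 41 last of the 4 as before. The cause of these shifts was not tested. Of 86 list counts all 86 were within 1.5 times under centring, and 22 moved further at a threshold of 0.5, an alternative chosen after seeing the data. No paired analysis was possible because each column pools all libraries. With 1 value per gene and state, cells per state and depth unknown, small leads such as those of Tbx1 and Prrx2 over state 20 rest on single values with no error.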

Other observations

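The genes of this paragraph were chosen after their values were seen, and some of them are also members of the gene lists. Xist, which coats and silences the inactive X, was at 1.10 in state 34, second only to 1.11 in state 24, with 0.723 in state 20, 1.04 in state 33, 0.965 in state 18 and 0.876 in state 41. Hbb-bs, an adult-type beta globin, was at 0.066 in state 34, 0.298 in state 20 and 0.388 in state 18, whereas Hba-a1 was at 0.599 in state 34, 0.386 in state 20 and 0.561 in state 18. Igf1, a growth factor, was low but higher than in the 4 neighbouring states, at 0.153 in state 34 and at most 0.023 in those 4. Col23a1, a transmembrane collagen, was at 0.350 in state 34 and 0.400 in state 20, the 2 highest levels of all states. Imprinted genes went both ways, with Mest and Nnat 0.3 or more above the others' mean and Phlda2 as far below it, of 8 measured.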
